A study of Homo sapiens with 60 samples.

Results

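SWI/SNF chromatin remodelling complexes are described here through 10 of their subunit genes, chosen by name and taken from 19712 genes measured in every library: the ATPases SMARCA4 and SMARCA2, the ARID1A and ARID1B subunits of the canonical BAF complex, the ARID2 and PBRM1 subunits of the PBAF complex, and the core subunits SMARCB1, SMARCC1, SMARCD1 and SMARCE1, shared by canonical BAF and PBAF. All 10 were listed in both deposited tables and passed the filter on low counts in every comparison. RNA was sequenced from PC9, HCC827, H1975 and HCC2935, 4 human EGFR-mutant lung adenocarcinoma cell lines, after treatment with osimertinib, an EGFR tyrosine kinase inhibitor. Each line had 5 arms of 3 biological replicates, giving 20 groups and 60 libraries. DMSO cells received vehicle for 24 h and acutely treated cells 500 nM osimertinib for 24 h. Drug-tolerant persisters (DTPs) had been kept in 500 nM osimertinib for 21 days, and short washout cells were such DTPs after 24 h without drug. Long washout cells were DTPs left without drug, by their labels until they proliferated again, for 7 days in PC9, 4 days in HCC827, 3 days in H1975 and 10 days in HCC2935, so line and washout time cannot be told apart in that arm. DMSO and acutely treated cells were parental cultures carried without drug for the 21 days that the DTPs spent in it. Depth had medians of 40.2, 19.7, 42.9 and 21.6 M estimated counts (M, 1e6) in PC9, HCC827, H1975 and HCC2935.

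SWI/SNF complexes use the energy of ATP to slide and evict nucleosomes, and each assembled complex holds a single ATPase, SMARCA4 or its paralog SMARCA2. ARID1A or ARID1B marks the canonical BAF form, which works largely at enhancers, whereas ARID2 with PBRM1 marks PBAF.

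On the GRCh38 assembly, the genes of 7 members lie on the plus strand: SMARCA4 at chr19:10960825-11079426, SMARCA2 at chr9:1980290-2193624, ARID1A at chr1:26693236-26782110, ARID1B at chr6:156776020-157210779, ARID2 at chr12:45729665-45908040, SMARCB1 at chr22:23786931-23838008 and SMARCD1 at chr12:50084972-50100712. PBRM1 (chr3:52545352-52685917), SMARCC1 (chr3:47585272-47782106) and SMARCE1 (chr17:40624962-40648864) are read from the minus strand. PBRM1 overlaps GNL3 and SMIM4 and SMARCB1 overlaps DERL3, each on the opposite strand, and SMARCE1 overlaps AC073508.2 on its own strand and has 7 pseudogenes named after it. Whether counting used strand is not given in the sources used here, so reads of PBRM1, SMARCB1 and SMARCE1 may include some from those loci, and their values are uncertain to that extent. Of the other SWI/SNF genes, SMARCC2, SMARCD3, ACTL6A, BRD7, BRD9 and PHF10 overlap protein-coding genes too, and the same holds for their values and shares.

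RefSeq promoter windows of 250 bases before the most upstream start in the table (of 4 for SMARCA2 and 2 for SMARCA4) were found for 8 of the 10 members. The 4 shown were chosen after the values were seen, and those of SMARCA2 and ARID1A lie inside the gene spans above. Each is the longest stretch of its window that lies outside every annotated exon, on GRCh38.p14 and read 5′ to 3′ on the plus strand: chr19:10960780-10960824 for SMARCA4, chr9:2015097-2015185 for SMARCA2, chr1:26695765-26696014 for ARID1A and chr22:23786716-23786930 for SMARCB1. Capitals mark matches to a motif searched on both strands. The motifs were the CCAAT box, E-box, GC box, ETS core, E2F site in 2 forms, NRF1 site, cAMP response element and AP-1 site.
SMARCA4: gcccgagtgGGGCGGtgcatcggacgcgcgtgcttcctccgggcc
SMARCA2: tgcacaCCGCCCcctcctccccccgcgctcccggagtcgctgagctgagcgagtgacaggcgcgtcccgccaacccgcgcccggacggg
ARID1A: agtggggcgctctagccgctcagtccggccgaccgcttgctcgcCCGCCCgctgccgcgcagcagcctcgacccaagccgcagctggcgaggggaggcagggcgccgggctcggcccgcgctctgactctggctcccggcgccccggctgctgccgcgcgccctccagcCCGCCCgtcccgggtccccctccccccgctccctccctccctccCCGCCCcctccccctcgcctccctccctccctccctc
SMARCB1: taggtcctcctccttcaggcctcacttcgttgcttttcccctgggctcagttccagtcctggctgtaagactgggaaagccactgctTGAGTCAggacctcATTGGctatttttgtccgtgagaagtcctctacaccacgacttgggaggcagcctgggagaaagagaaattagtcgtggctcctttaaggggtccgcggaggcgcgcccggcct
The capitals in SMARCA4 are a GC box (GGGCGG), those in SMARCA2 and ARID1A the same box on the other strand (CCGCCC), and those in SMARCB1 an AP-1 site (TGANTCA) and a CCAAT box read on the other strand (ATTGG). The whole windows of 250 bases held 4 GC boxes for SMARCA4, and 2 GC boxes and 1 ETS core (CCGGAAG) for SMARCA2. Over 35116 RefSeq promoter windows of the same length, 42.6% held GGGCGG, 32.0% CCAAT, 8.52% CCGGAAG and 6.57% TGANTCA.

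The labels were checked against the data first. All 60 libraries were closest to another library of their own line over 13805 genes. Keratins of simple epithelia were abundant throughout, with KRT8 at 575 TPM (transcripts of a gene per 1e6 transcripts) or more, KRT18 at 535 or more and KRT19 at 394 or more. Lung lineage was uneven: NKX2-1, a lung lineage factor, with NAPSA, SFTPB and SFTPC summed to 0.860, 1.02 and 0.802 TPM in the DMSO libraries of PC9 and to 361, 345 and 329 TPM in those of HCC2935, and to 106, 104 and 92.5 in its DTPs. Defining leukocyte genes were low, with highest values of 3.48 TPM for PTPRC and 0.246 for CD3E, while CD68 reached 175 TPM. Of fibroblast and endothelial genes, DCN peaked at 1.33 TPM, PDGFRB at 8.502, COL3A1 at 16.5, PECAM1 at 10.2 and CDH5 at 21.1, and COL1A1 ranged from 4.73 to 167 TPM. The 4 fibroblast genes summed to means of 7.58, 7.13, 30.5 and 28.5 TPM under DMSO in PC9, HCC827, H1975 and HCC2935. In DTPs the means were 15.4, 36.9, 52.0 and 64.2 TPM, with COL1A1 the most abundant. Drug action was visible in genes induced by ERK, the kinase downstream of EGFR: acutely, 9, 8, 8 and 10 of 10 fell in PC9, HCC827, H1975 and HCC2935. DUSP6, a phosphatase of ERK, changed acutely by log2 fold changes of -6.00, -3.40, -3.57 and -5.52, and SPRY4, a feedback inhibitor of the pathway, by -5.17, -4.24, -4.05 and -4.17, in the same order of lines. In DTPs of HCC827 neither was called against DMSO (-0.34 and -0.96, adjusted p = 0.48 and 0.0768), DUSP6 passing without DTP replicate 2 (-0.97, adjusted p = 0.0111), and both were higher than acutely (3.02 and 3.24). Against DTPs, short washout called neither DUSP6 nor SPRY4 in HCC827, H1975 and HCC2935, and DUSP6 alone in PC9 (1.15). After long washout both stayed lower than under DMSO in PC9 (-3.17 and -2.41), H1975 (-3.06 and -4.15) and HCC2935 (-2.99 and -1.35). In HCC827 DUSP6 was then higher than under DMSO (0.57). In H1975 the long washout values against DTPs were -0.15 and 0.60, neither called. All 12 proliferation genes fell in each line both acutely and in DTPs. MKI67, expressed in cycling cells, changed by -1.28, -2.30, -2.29 and -1.98 acutely and TOP2A, the mitotic topoisomerase, by -1.67, -2.39, -2.18 and -2.00. Replicates of a group differed by a variance 8.82 to 140.2 times their counting error over 60 pairs (median 26.1), so none is a copy of another. In such bulk RNA, fewer cells of a type and less RNA per cell cannot be told apart.

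Before drug, the lines already differed in their subunit levels, most of all in SMARCC1 and SMARCB1. In TPM, which corrects for transcript length and so allows genes to be compared, SMARCE1 was the most abundant member in PC9, HCC827 and HCC2935 and SMARCA4 in H1975, while ARID2 was the least abundant in every line (mean ± SD, n = 3 throughout). SMARCE1, an HMG-box core subunit, stood at 125 ± 8.60 TPM in PC9, 150.2 ± 6.95 in HCC827, 96.0 ± 3.52 in H1975 and 185 ± 8.61 in HCC2935. SMARCA4 stood at 104 ± 8.33, 99.5 ± 1.57, 158 ± 27.1 and 107 ± 6.81 TPM and SMARCA2 at 12.7 ± 0.815, 27.2 ± 0.996, 13.7 ± 3.20 and 27.0 ± 3.41 TPM in the same order of lines. All 10 members differed between the untreated lines when the 12 DMSO libraries were tested together, beside 91.2% of all genes, so that count is close to what genes at large showed. With limma on log2 TPM SMARCD1 did not pass (adjusted p = 0.301), nor ARID1B once that was centred (0.0697). Without HCC2935 DMSO replicate 1 or 2 the count was 9 of 10, ARID1B no longer passing (adjusted p = 0.063 and 0.066). SMARCC1, a scaffold of the core, read 74.3, 71.1 and 71.7 CPM (counts per 1e6 counts) in HCC2935, 228, 267 and 223 in HCC827, 259, 232 and 233 in PC9 and 252, 278 and 255 in H1975. HCC2935 lay below every library of the other lines, and the step to HCC827 was large (log2 difference 1.73, SE 0.09, adjusted p = 2.54e-09), whereas HCC827 and PC9 (adjusted p = 0.971) and PC9 and H1975 (adjusted p = 0.318) did not differ beyond their spread. SMARCB1, the core subunit that contacts the nucleosome, read 44.6, 44.7 and 40.8 CPM in HCC827, 122, 107 and 103 in PC9, 117, 119.6 and 112 in HCC2935 and 115, 122.8 and 121 in H1975. Here HCC827 stood alone at the bottom (log2 difference 1.34, SE 0.08, adjusted p = 1.76e-08 to PC9), and the neighbours above it did not differ on counts (adjusted p = 0.462 and 0.802). In TPM SMARCB1 was lower in PC9 (83.9 ± 7.49) than in H1975 (108 ± 4.59) and HCC2935 (117 ± 1.69), without overlap.

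For SMARCA4 the untreated order in CPM ran from HCC2935 over HCC827 and PC9 to H1975, and in that order only the last step passed (log2 difference 0.32, SE 0.10, adjusted p = 0.0135), the others having adjusted p = 0.165 and 0.0825. In TPM it was lowest in HCC827 (99.5 ± 1.57), with HCC2935 overlapping at 107 ± 6.81. SMARCA2 ran from H1975 over PC9 and HCC2935 to HCC827, with a step between PC9 and HCC2935 (log2 difference 0.68, SE 0.15, adjusted p = 0.00125) and no resolved difference below it (adjusted p = 0.386) or above it (adjusted p = 0.117). ARID1A, the DNA-binding subunit of canonical BAF, was lowest in H1975 and highest in HCC2935 in CPM, with steps from H1975 to PC9 (adjusted p = 0.0436) and from HCC827 to HCC2935 (adjusted p = 0.027) but not between PC9 and HCC827 (adjusted p = 0.855). In TPM it was lowest in PC9 (21.9 ± 0.705), with H1975 overlapping at 22.7 ± 1.84. No neighbouring pair differed for its paralog ARID1B (adjusted p = 0.971, 0.232 and 0.0874 from PC9 up to HCC2935). ARID2 stepped up from H1975 to HCC2935 (log2 difference 0.31, SE 0.09, adjusted p = 0.00789) and from PC9 to HCC827 (adjusted p = 0.0305), with adjusted p = 0.21 between HCC2935 and PC9. In TPM the order of these was reversed, the ARID2 libraries of PC9 (7.71 to 8.69) lying below those of HCC2935 (9.74 to 10.5). PBRM1, the bromodomain subunit of PBAF, was set apart on counts in HCC2935, where it lay below PC9 (log2 difference 0.58, SE 0.13, adjusted p = 0.00154), and PC9 lay below H1975 (adjusted p = 0.0468), with HCC827 between them and apart from neither (adjusted p = 0.339 and 0.288). In TPM the PBRM1 libraries of HCC2935 (13.1 to 16.1) and PC9 (15.5 to 16.8) overlapped. For SMARCD1, a core subunit that bridges to transcription factors, HCC2935 and H1975 lay below HCC827 and PC9 in CPM, with the resolved step between H1975 and HCC827 (log2 difference 0.33, SE 0.11, adjusted p = 0.0236, and adjusted p = 0.336 and 0.332 for the neighbours). In TPM the SMARCD1 libraries of H1975 (50.5 to 58.7) and HCC827 (56.0 to 73.9) overlapped. SMARCE1 was lower in H1975 than in PC9 (log2 difference 0.65, SE 0.07, adjusted p = 4.32e-06), and PC9, HCC827 and HCC2935 did not part on counts (adjusted p = 0.174 and 0.736). In TPM the libraries of PC9 (120 to 135), HCC827 (143 to 156) and HCC2935 (179 to 195) did not overlap for SMARCE1. Pairs of lines were not retested with libraries left out.

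**Figure D1:**
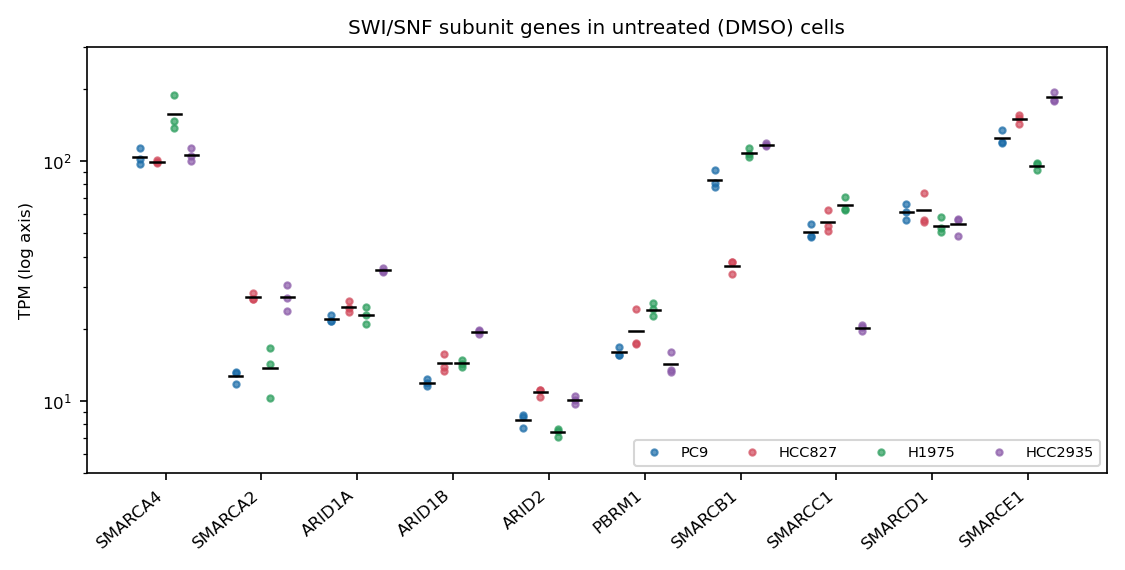
TPM on a log axis of the 10 members in the DMSO libraries of each line, a dot for each of 3 replicates and a line at their mean. SMARCC1 is low in HCC2935 (20.2 ± 0.639 TPM, mean ± SD) and SMARCB1 in HCC827 (36.6 ± 2.43 TPM), and ARID2 is at the bottom in all 4 lines.

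Across the 5 arms, SMARCA4 followed a different course in each line. In PC9, SMARCA4 read 370.0, 318 and 334 CPM under DMSO, 217, 209 and 243 under acute osimertinib, 235, 231 and 221 in DTPs, 273, 279.7 and 268 after short washout and 279, 313 and 262 after long washout. Every DMSO library lay above every library of the other arms. In HCC827, SMARCA4 read 285, 295 and 296 CPM under DMSO, 272, 284 and 292 under acute osimertinib, 286, 296 and 287 in DTPs, 286, 289.9 and 277 after short washout and 284, 276 and 299 after long washout. The arms overlapped throughout in this line. In H1975, SMARCA4 read 377, 507 and 409.8 CPM under DMSO, 372, 349 and 300.5 under acute osimertinib, 528, 559 and 535 in DTPs, 556, 603 and 526 after short washout and 525, 543 and 535 after long washout. DMSO stood just above acute treatment, and all libraries of DTPs and both washouts stood above all of DMSO. In HCC2935, SMARCA4 read 252, 262 and 269 CPM under DMSO, 189, 214 and 205 under acute osimertinib, 162, 163 and 174 in DTPs, 171, 169.8 and 180.1 after short washout and 171, 166 and 157 after long washout. Levels stepped down from DMSO to acute treatment and again to the later arms, with no overlap at either step.

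SMARCA2, the other ATPase, was scarcer than SMARCA4 in TPM in every group and moved differently. In PC9, SMARCA2 read 39.3, 40.1 and 35.5 CPM under DMSO, 65.1, 49.4 and 60.0 under acute osimertinib, 52.0, 50.3 and 60.5 in DTPs, 62.8, 57.0 and 63.7 after short washout and 61.5, 54.3 and 54.1 after long washout. All DMSO libraries of PC9 lay below all treated ones. In HCC827, SMARCA2 read 71.7, 76.4 and 73.2 CPM under DMSO, 63.7, 80.3 and 66.3 under acute osimertinib, 52.8, 55.9 and 51.7 in DTPs, 58.0, 59.8 and 62.5 after short washout and 36.8, 54.9 and 63.6 after long washout. The DMSO libraries overlapped acute treatment and lay above DTPs and both washouts. In H1975, SMARCA2 read 42.1, 25.6 and 36.6 CPM under DMSO, 26.1, 31.1 and 43.9 under acute osimertinib, 18.1, 14.1 and 15.1 in DTPs, 23.9, 18.8 and 20.4 after short washout and 17.6, 22.5 and 19.0 after long washout. DTPs and both washouts lay below every DMSO and acute library. In HCC2935, SMARCA2 read 54.7, 62.0 and 66.5 CPM under DMSO, 75.5, 76.0 and 64.9 under acute osimertinib, 70.6, 57.9 and 57.7 in DTPs, 48.7, 62.2 and 64.0 after short washout and 50.7, 58.6 and 53.2 after long washout. Acute libraries lay above both washouts, and the other arms overlapped.

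**Figure D2:**
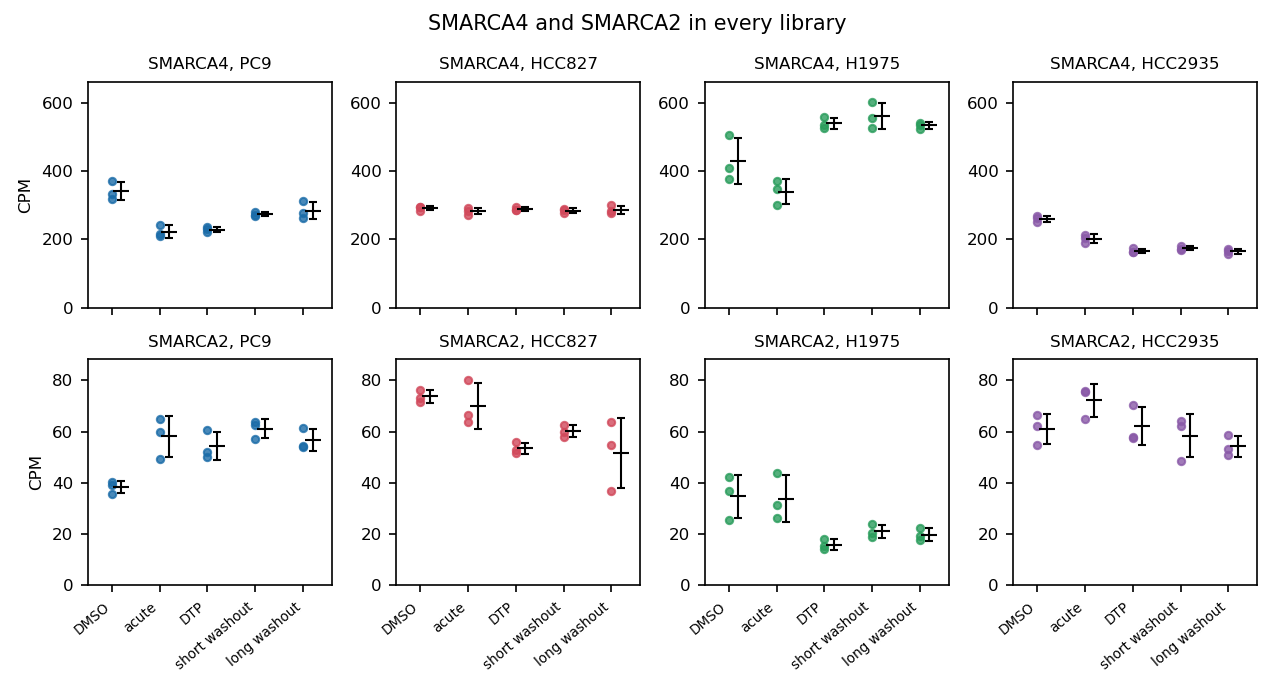
SMARCA4 and SMARCA2 in CPM in each of 60 libraries, by line and arm, with dashes at the group mean and bars of 1 SD (n = 3). In H1975 SMARCA2 is lower in DTPs and after long washout than under DMSO, and in PC9 SMARCA4 is lower and SMARCA2 higher under acute osimertinib and in DTPs.

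Among the core subunits, SMARCB1 set HCC827 apart from the other lines. In PC9, SMARCB1 read 122, 107 and 103 CPM under DMSO, 90.4, 83.8 and 93.5 under acute osimertinib, 67.4, 61.8 and 73.5 in DTPs, 74.7, 71.5 and 71.3 after short washout and 99.5, 94.2 and 71.0 after long washout. All treated libraries of PC9 lay below DMSO. In HCC827, SMARCB1 read 44.6, 44.7 and 40.8 CPM under DMSO, 57.3, 54.1 and 55.0 under acute osimertinib, 55.4, 54.5 and 57.9 in DTPs, 58.2, 61.6 and 61.5 after short washout and 54.4, 55.2 and 56.7 after long washout. In HCC827 the order was the other way round, with all treated libraries above DMSO. In H1975, SMARCB1 read 115, 122.8 and 121 CPM under DMSO, 92.7, 98.8 and 94.2 under acute osimertinib, 87.9, 97.1 and 81.5 in DTPs, 90.3, 109 and 94.4 after short washout and 90.5, 91.8 and 84.4 after long washout. DMSO again lay on top. In HCC2935, SMARCB1 read 117, 119.6 and 112 CPM under DMSO, 102, 112 and 101.4 under acute osimertinib, 70.3, 64.9 and 69.6 in DTPs, 67.5, 71.6 and 75.2 after short washout and 63.2, 87.4 and 74.8 after long washout. All treated libraries of HCC2935 lay below DMSO, those of acute treatment closest to it.

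The other members are given by their lowest and highest library. ARID1A ranged from 91.5 CPM (PC9 in DTPs) to 159 CPM (HCC2935 under DMSO), ARID1B from 58.0 CPM (PC9 in DTPs) to 87.4 CPM (HCC827 after short washout), ARID2 from 32.0 CPM (PC9 in DTPs) to 58.5 CPM (HCC827 under DMSO) and PBRM1 from 27.0 CPM (HCC2935 after long washout) to 92.1 CPM (H1975 in DTPs). SMARCC1 ranged from 43.7 CPM (HCC2935 after long washout) to 343 CPM (H1975 in DTPs), SMARCD1 from 44.8 CPM (HCC2935 after short washout) to 120.3 CPM (PC9 under DMSO) and SMARCE1 from 75.0 CPM (H1975 under acute osimertinib) to 204 CPM (HCC827 under acute osimertinib).

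The first question was which subunit genes respond within a day of EGFR inhibition. SMARCA4 fell under acute osimertinib in PC9, H1975 and HCC2935, and SMARCA2 rose in PC9. SMARCB1, SMARCC1 and SMARCD1, which belong to the core, fell in both PC9 and H1975, whereas the members called in HCC827 rose. Tested within each line and adjusted over all genes (edgeR, called at adjusted p under 0.05), 14 of 40 member and line pairs were called, 3 higher and 11 lower. They were 6 in PC9, 1 higher and 5 lower, beside 68.5% of all genes (34.4% higher and 34.1% lower) and 2 in HCC827, 2 higher and 0 lower, beside 42.3% (20.2% higher and 22.1% lower). There were also 5 in H1975, 0 higher and 5 lower, beside 44.9% (21.2% higher and 23.7% lower) and 1 in HCC2935, lower, beside 47.1% (22.0% higher and 25.1% lower). In either direction the counts were near or under the background, and so no result about the subunits as a group, although the lower calls of PC9 and H1975 exceed the shares of genes lower. With limma on log2 TPM the counts in PC9, HCC827, H1975 and HCC2935 were 4, 2, 2 and 1, and with the replicate block 5, 0, 2 and 2. The median log2 fold change over the 10 members was -0.17 in PC9 (all genes 0.03), 0.10 in HCC827 (all genes 0.01), -0.20 in H1975 (all genes 0.03) and -0.03 in HCC2935 (all genes 0.01). SMARCA4 fell in PC9 (log2 fold change -0.65, SE 0.08, adjusted p = 0.000106), H1975 (-0.41, SE 0.13, adjusted p = 0.0406) and HCC2935 (-0.39, SE 0.09, adjusted p = 0.00454), without overlap between the replicates of either arm, and stood at -0.08 in HCC827 (adjusted p = 0.443). SMARCA2 rose in PC9 (log2 fold change 0.56, SE 0.11, adjusted p = 0.00158), again without overlap, and was not called elsewhere (-0.11 to 0.21, adjusted p = 0.461, 0.724 and 0.134 in HCC827, H1975 and HCC2935). ARID1A fell in PC9 (log2 fold change -0.17, SE 0.06, adjusted p = 0.0406), and ARID1B, ARID2 and PBRM1 were called in no line, with log2 fold changes of -0.05 to 0.23, -0.18 to 0.08 and -0.30 to 0.14. A test of the difference between lines passed for 5 of 10 members beside 40.5% of genes, near that share, with SMARCA4 among them (adjusted p = 0.025) and SMARCA2 not (0.0684). Leaving out a library ended the calls of SMARCA4 in H1975 (any but DMSO replicate 1 and acute replicate 1, -0.45 to -0.29, adjusted p 0.0704 to 0.105) and SMARCA4 between lines (HCC827 DMSO replicate 1 and HCC827 acute replicate 3, adjusted p 0.0536 to 0.0569). Also lost was ARID1A in PC9 (any but DMSO replicate 1 and acute replicate 1, -0.18 to -0.15, adjusted p 0.0613 to 0.11). Left-out libraries also brought calls: ARID2 in PC9 without DMSO replicate 1 (-0.24, adjusted p = 0.0396), PBRM1 in HCC827 without DMSO replicate 2 (0.31, adjusted p = 0.0476) and PBRM1 in HCC2935 without acute replicate 1 (-0.42, adjusted p = 0.0367). In HCC2935, where the replicate numbers paired the libraries (correlations of 0.188, 0.126 and 0.357), PBRM1 was called with the number as a block (-0.30, SE 0.09, adjusted p = 0.0191, against 0.0919 without it). The difference between lines passed for SMARCA2 without PC9 acute replicate 2, H1975 DMSO replicate 2 and H1975 acute replicate 3 (adjusted p 0.0105 to 0.0455), ARID1B without HCC827 DMSO replicate 2 (adjusted p = 0.0413) and PBRM1 without HCC827 DMSO replicate 2 (adjusted p = 0.0249).

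In the core, acute treatment moved the same genes in opposite directions in different lines. SMARCB1 fell in PC9 (log2 fold change -0.35, SE 0.08, adjusted p = 0.00418) and H1975 (-0.39, SE 0.08, adjusted p = 0.00483) and rose in HCC827 (0.32, SE 0.10, adjusted p = 0.0232), where it had started lowest, with -0.17 in HCC2935 (adjusted p = 0.113). SMARCC1 fell in PC9 (log2 fold change -0.27, SE 0.08, adjusted p = 0.0107) and H1975 (-0.29, SE 0.08, adjusted p = 0.0253) and stood at 0.19 in HCC827 and 0.21 in HCC2935 (adjusted p = 0.131 and 0.0617). SMARCD1 fell in H1975 (log2 fold change -0.54, SE 0.10, adjusted p = 0.00334) and PC9 (-0.26, SE 0.08, adjusted p = 0.0225). SMARCE1 rose in HCC827 (log2 fold change 0.29, SE 0.09, adjusted p = 0.0269) and fell in H1975 (-0.24, SE 0.08, adjusted p = 0.0472). All 4 core members differed between lines (adjusted p = 0.000112 for SMARCB1, 0.00082 for SMARCC1, 0.0122 for SMARCD1 and 0.00587 for SMARCE1). Leaving out a library ended the calls of SMARCB1 in HCC827 (any but DMSO replicate 2, 0.27 to 0.34, adjusted p 0.0517 to 0.0906) and SMARCC1 in H1975 (DMSO replicate 3 and acute replicates 2 and 3, -0.32 to -0.25, adjusted p 0.0549 to 0.0637). Others were SMARCD1 in PC9 (DMSO replicates 1 and 3 and acute replicate 2, -0.26 to -0.20, adjusted p 0.05003 to 0.0701) and SMARCE1 in HCC827 (any but DMSO replicate 2 and acute replicate 2, 0.24 to 0.30, adjusted p 0.0613 to 0.113). Lost as well was SMARCE1 in H1975 (any library, -0.27 to -0.20, adjusted p 0.0618 to 0.128). A call appeared for SMARCC1 in HCC827 without DMSO replicate 2 (0.27, adjusted p = 0.023).

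DTPs were compared with DMSO to ask which subunits differ in cells that outlive 21 days of drug. SMARCA4 was lower in DTPs of PC9 and HCC2935, and SMARCA2 moved in opposite directions, higher in PC9 and lower in HCC827 and H1975. SMARCB1 was lower in PC9, H1975 and HCC2935 and higher in HCC827, and SMARCD1 was lower in the same 3 lines. Of 40 member and line pairs, 21 were called, 3 higher and 18 lower. They were 7 in PC9, 1 higher and 6 lower, beside 71.3% of all genes (35.4% higher and 35.9% lower) and 3 in HCC827, 1 higher and 2 lower, beside 36.7% (19.4% higher and 17.2% lower). Next were 4 in H1975, 1 higher and 3 lower, beside 45.7% (22.4% higher and 23.4% lower) and 7 in HCC2935, 0 higher and 7 lower, beside 52.5% (25.3% higher and 27.2% lower). In either direction those counts lie near the background, or above it in HCC2935, and the lower calls of PC9 and HCC2935 exceed the shares of genes lower. With limma on log2 TPM the counts were 4, 3, 3 and 3 in the same order. Median log2 fold changes over the 10 members were -0.32 in PC9 (all genes 0.02), 0.02 in HCC827 (all genes 0.02), 0.04 in H1975 (all genes 0.01) and -0.37 in HCC2935 (all genes 0.00). SMARCA4 fell in PC9 (log2 fold change -0.61, SE 0.07, adjusted p = 2.7e-05) and HCC2935 (-0.67, SE 0.08, adjusted p = 0.000159), and read 0.00 in HCC827 and 0.29 in H1975 (adjusted p = 0.98 and 0.0769). SMARCA2 rose in PC9 (log2 fold change 0.47, SE 0.09, adjusted p = 0.00103) and fell in HCC827 (-0.45, SE 0.11, adjusted p = 0.0115) and H1975 (-1.18, SE 0.20, adjusted p = 0.00158), with 0.01 in HCC2935 (adjusted p = 0.96). ARID1A fell in PC9 (log2 fold change -0.41, SE 0.07, adjusted p = 0.000545) and HCC2935 (-0.46, SE 0.08, adjusted p = 0.00104), and ARID1B was called in no line (-0.08 to 0.28). Of the PBAF pair, ARID2 fell in HCC827 (log2 fold change -0.46, SE 0.11, adjusted p = 0.0124) and PBRM1 in HCC2935 (-0.40, SE 0.13, adjusted p = 0.0302). The difference between lines passed for 8 of 10 members beside 61.6% of genes, a little above that share, including SMARCA4 (adjusted p = 2.09e-06), SMARCA2 (5.43e-06), ARID1A (0.00167) and ARID2 (0.00937). Calls lost with a library left out were PBRM1 in HCC2935 (any but DMSO replicate 3 and DTP replicate 1, -0.42 to -0.27, adjusted p 0.0586 to 0.164). By setting alone, calls were lost with limma on log2 TPM for ARID1A in PC9 and ARID1A between lines (adjusted p 0.0739 to 0.173). Calls appeared for SMARCA4 in H1975 without DMSO replicate 2 (0.41, adjusted p = 0.0142), ARID1B in H1975 without DTP replicate 2 (0.37, adjusted p = 0.0166) and ARID2 in PC9 without DTP replicate 1 (-0.38, adjusted p = 0.0307). With a library left out, the difference between lines also passed for PBRM1 without HCC827 DMSO replicate 2 (adjusted p = 0.0172).

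In H1975, EPCAM and CDH1, adhesion molecules of epithelial cells, fell in DTPs (EPCAM log2 fold change -3.27, SE 0.30, adjusted p = 0.000134, and CDH1 log2 fold change -5.14, SE 0.41, adjusted p = 8.19e-05). EPCAM read 272, 123.3 and 241 TPM under DMSO and 18.1, 25.8 and 21.5 in DTPs. CDH1 read 112, 41.8 and 99.5 TPM and 1.73, 2.63 and 2.77 TPM. In DTPs of HCC827 both fell too (EPCAM -1.84, CDH1 -1.81), in PC9 EPCAM fell (-1.18) and CDH1 rose (1.08), and in HCC2935 EPCAM fell (-0.59) and CDH1 was not called (-0.09), so that CDH1 had the direction of SMARCA2 where that was called and EPCAM fell in all 4. Long washout against DMSO gave the same calls, with CDH1 at -5.10, -1.89 and 0.99 in H1975, HCC827 and PC9. No left-out library changed these calls. Keratins followed no such order. KRT8, KRT18 and KRT19 fell in DTPs of HCC827 (-1.08, -1.57 and -0.89) and HCC2935 (-0.55, -0.54 and -0.96), and none was called in H1975. In PC9 KRT18 fell (-0.48), KRT19 rose (0.50) and KRT8 was not called (0.07). The part of such shifts in the results for SMARCA2 and SMARCB1 was not tested.

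Core subunits were lower in DTPs of PC9 and HCC2935 for all 4 genes. SMARCB1 fell in PC9 (log2 fold change -0.75, SE 0.09, adjusted p = 3.00e-05), H1975 (-0.46, SE 0.10, adjusted p = 0.00635) and HCC2935 (-0.78, SE 0.08, adjusted p = 6.81e-05). In HCC827 it rose (log2 fold change 0.38, SE 0.11, adjusted p = 0.0274), and the lines differed (adjusted p = 3.68e-07). SMARCC1 fell in PC9 (log2 fold change -0.29, SE 0.06, adjusted p = 0.00219) and HCC2935 (-0.27, SE 0.09, adjusted p = 0.0279) and rose in H1975 (0.30, SE 0.10, adjusted p = 0.0408). SMARCD1 fell in PC9 (log2 fold change -0.55, SE 0.08, adjusted p = 0.000205), H1975 (-0.61, SE 0.12, adjusted p = 0.00328) and HCC2935 (-0.35, SE 0.10, adjusted p = 0.0169). SMARCE1 fell in PC9 (log2 fold change -0.35, SE 0.07, adjusted p = 0.00168) and HCC2935 (-0.40, SE 0.08, adjusted p = 0.00302). Differences between lines passed for SMARCC1 (adjusted p = 0.000700), SMARCD1 (0.00242) and SMARCE1 (0.0056). Calls lost with a library left out were SMARCB1 in HCC827 (any but DMSO replicate 2 and DTP replicate 1, 0.33 to 0.40, adjusted p 0.0728 to 0.0977) and SMARCC1 in H1975 (any but DMSO replicate 2 and DTP replicate 1, 0.25 to 0.28, adjusted p 0.089 to 0.153). Further, a library ended SMARCC1 in HCC2935 (any but DTP replicate 2, -0.26 to -0.23, adjusted p 0.0607 to 0.125) and SMARCD1 in HCC2935 (DMSO replicate 2 and DTP replicate 3, -0.31 to -0.27, adjusted p 0.0592 to 0.0885). By setting alone, calls were lost with library size alone for SMARCC1 in PC9 (adjusted p = 0.0878), and limma on log2 TPM for SMARCC1 in PC9, SMARCC1 between lines, SMARCE1 in PC9, SMARCE1 in HCC2935 and SMARCE1 between lines (adjusted p 0.0756 to 0.79).

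**Figure D3:**
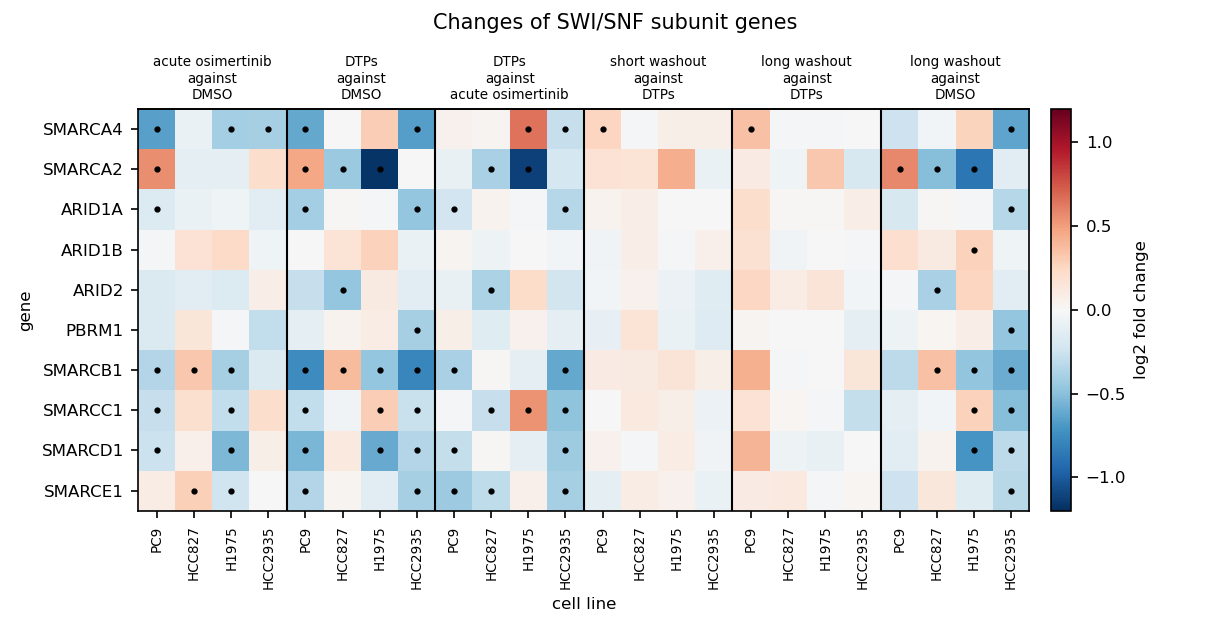
Log2 fold changes of the 10 members (vertical) in 6 comparisons by line (horizontal), coloured from lower to higher, with a dot where the change was called (edgeR, adjusted p under 0.05, n = 3 per group). SMARCA2 in DTPs against DMSO spans -1.18 in H1975 to 0.47 in PC9, and the washouts against DTPs hold a single dot each.

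DTPs and acutely treated cells were both in drug by their labels, so their comparison follows what changed between a day and 21 days of it. In H1975 the ATPases moved apart, SMARCA4 higher and SMARCA2 lower in DTPs. SMARCE1 was lower in DTPs of PC9, HCC827 and HCC2935, and SMARCC1 was higher in H1975 and lower in HCC827 and HCC2935. Calls were made for 17 of 40 member and line pairs, 2 higher and 15 lower. They were 4 in PC9, 0 higher and 4 lower, beside 39.8% of all genes (19.2% higher and 20.6% lower) and 4 in HCC827, 0 higher and 4 lower, beside 29.5% (15.7% higher and 13.8% lower). The others were 3 in H1975, 2 higher and 1 lower, beside 26.2% (11.2% higher and 14.9% lower) and 6 in HCC2935, 0 higher and 6 lower, beside 42.4% (22.0% higher and 20.4% lower). These are near or slightly above the background of each line, with more lower calls than its share of genes lower in PC9, HCC827 and HCC2935. With limma on log2 TPM the counts were 2, 0, 3 and 1 in the same order. In PC9 the edgeR calls of ARID1A, SMARCB1, SMARCD1 and SMARCE1 did not pass with it. Its 2 calls there were SMARCA4 (0.31, adjusted p = 0.0434) and PBRM1 (0.33, adjusted p = 0.0471), both higher and neither called by edgeR. The median of all genes stood at 0.28 in PC9 with that setting. Over the 10 members the median log2 fold change was -0.09 in PC9 (all genes 0.01), -0.10 in HCC827 (all genes 0.00), 0.02 in H1975 (all genes 0.01) and -0.31 in HCC2935 (all genes 0.00). This comparison shares its DTP libraries with DTPs against DMSO and its acute libraries with acute treatment against DMSO. SMARCA4 rose in H1975 (log2 fold change 0.65, SE 0.11, adjusted p = 0.00537) and fell in HCC2935 (-0.28, SE 0.09, adjusted p = 0.0352), and SMARCA2 fell in H1975 (-1.12, SE 0.20, adjusted p = 0.00613) and HCC827 (-0.39, SE 0.11, adjusted p = 0.0342). ARID1A fell in PC9 (log2 fold change -0.23, SE 0.07, adjusted p = 0.0322) and HCC2935 (-0.34, SE 0.09, adjusted p = 0.0151) and ARID2 in HCC827 (-0.38, SE 0.09, adjusted p = 0.0164), and ARID1B and PBRM1 were called in no line (-0.06 to 0.03 and -0.15 to 0.07). Differences between lines passed for 7 of 10 members beside 52.4% of genes, a little above that share, with adjusted p = 1.39e-05 for SMARCA4, 0.00268 for SMARCA2, 0.0182 for ARID1A and 0.0108 for ARID2. Calls that hung on single libraries were SMARCA4 in HCC2935 (any but acute replicate 1, -0.31 to -0.24, adjusted p 0.064 to 0.12) and SMARCA2 in HCC827 (any but acute replicate 1 and DTP replicate 1, -0.43 to -0.28, adjusted p 0.061 to 0.109). Also lost were ARID1A in PC9 (any but acute replicate 2 and DTP replicate 3, -0.24 to -0.18, adjusted p 0.0609 to 0.0973) and ARID1A in HCC2935 (DTP replicate 3, -0.33, adjusted p = 0.0568). Another was ARID2 in HCC827 (acute replicates 2 and 3, -0.37 to -0.34, adjusted p 0.0634 to 0.0712). By setting alone, calls were lost with limma on log2 TPM and the replicate block for ARID1A between lines (adjusted p 0.0681 to 0.488). ARID1A in PC9 reversed with limma on log2 TPM (0.0271, adjusted p = 0.824).

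Each core subunit was called in HCC2935, and lower there. SMARCB1 fell in HCC2935 (log2 fold change -0.62, SE 0.09, adjusted p = 0.000507) and PC9 (-0.39, SE 0.08, adjusted p = 0.0059). SMARCC1 rose in H1975 (log2 fold change 0.54, SE 0.11, adjusted p = 0.00927) and fell in HCC2935 (-0.48, SE 0.09, adjusted p = 0.00253) and HCC827 (-0.27, SE 0.08, adjusted p = 0.0353), a difference between lines (adjusted p = 1.53e-06). SMARCD1 fell in HCC2935 (log2 fold change -0.43, SE 0.13, adjusted p = 0.0224) and PC9 (-0.28, SE 0.09, adjusted p = 0.0282). SMARCE1 fell in PC9 (log2 fold change -0.43, SE 0.07, adjusted p = 0.00113), HCC2935 (-0.40, SE 0.10, adjusted p = 0.0076) and HCC827 (-0.31, SE 0.09, adjusted p = 0.0374). SMARCB1 (adjusted p = 0.000471) and SMARCE1 (0.00196) also differed between lines, and SMARCD1 did not pass (0.0639). Calls that hung on single libraries were SMARCC1 in HCC827 (any but DTP replicate 1, -0.28 to -0.25, adjusted p 0.0854 to 0.118) and SMARCD1 in PC9 (any but acute replicate 2 and DTP replicate 3, -0.31 to -0.22, adjusted p 0.0505 to 0.0846). Lost as well were SMARCD1 in HCC2935 (acute replicate 2 and DTP replicates 1 and 3, -0.41 to -0.28, adjusted p 0.0622 to 0.0911) and SMARCE1 in HCC827 (any but DTP replicate 2, -0.36 to -0.26, adjusted p 0.0526 to 0.14). By setting alone, calls were lost with limma on log2 TPM for SMARCB1 in PC9, SMARCC1 in HCC2935, SMARCE1 in PC9 and SMARCE1 in HCC2935 (adjusted p 0.0629 to 0.355). For the difference between lines, a call appeared for SMARCD1 without PC9 acute replicate 2, H1975 DTP replicate 3, HCC2935 acute replicates 1 and 3 and HCC2935 DTP replicate 2 (adjusted p 0.0394 to 0.0499).

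Withdrawing the drug from DTPs for 24 h raised SMARCA4 in PC9, the line with the most genes called after this step. That was the single call among 40 member and line pairs, under the background of PC9 (log2 fold change 0.26, SE 0.05, adjusted p = 0.00921). By line this is 1 in PC9, higher, beside 22.2% of all genes (12.1% higher and 10.1% lower) and 0 in HCC827 beside 0%. There were 0 in H1975 beside 0% and 0 in HCC2935 beside 3.52% (2.47% higher and 1.04% lower). In HCC827, H1975 and HCC2935 edgeR called 0 members, beside 0, 1 and 0 at an unadjusted p under 0.05, and DESeq2 and limma also called 0. The settings that ended it were limma on centred log2 TPM and a fit of all 15 libraries for SMARCA4 in PC9 (adjusted p 0.0575 to 0.0684). SMARCA2 in H1975 read 0.43 (SE 0.14, adjusted p = 0.272), and with the replicate number as a block it was called (0.43, SE 0.09, adjusted p = 0.0144), as were 1697 of all genes instead of 0. The replicate numbers of H1975 paired the libraries in this comparison (correlations of 0.249, 0.599 and 0.539), as did those of HCC827 (0.694, 0.402 and 0.520), where the block called 2 genes and no member. The difference between lines passed for 0 members by edgeR (0.0248% of genes), 2 at an unadjusted p under 0.05, and 0 by DESeq2 and limma.

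Longer withdrawal also moved SMARCA4 in PC9, by a call that single libraries carry. SMARCA4 in PC9 was again the single member called (log2 fold change 0.35, SE 0.09, adjusted p = 0.0435). By line this is 1 in PC9, higher, beside 17.3% of all genes (11.8% higher and 5.47% lower) and 0 in HCC827 beside 0%. There were 0 in H1975 beside 0.0136% (0% higher and 0.0136% lower) and 0 in HCC2935 beside 5.16% (2.99% higher and 2.17% lower). In HCC827, H1975 and HCC2935 edgeR called 0 members, DESeq2 and limma called 0, and 0, 1 and 1 had an unadjusted p under 0.05. SMARCA4 alone differed between lines (adjusted p = 0.0468), 1 of 10 members beside 7.34% of genes. Single libraries ended SMARCA4 in PC9 (any but long washout replicate 3, 0.27 to 0.37, adjusted p 0.116 to 0.153) and SMARCA4 between lines (any but PC9 long washout replicate 3 and H1975 DTP replicate 3, adjusted p 0.0592 to 0.183). Settings that ended calls were RLE size factors, library size alone, no filter, limma on log2 TPM, limma on centred log2 TPM and the replicate block for SMARCA4 in PC9 and SMARCA4 between lines (adjusted p 0.0511 to 0.211). PC9 rested on long washout replicate 3: without it the count rose to 5 of 10 members, adding ARID1A (0.26, adjusted p = 0.0404), SMARCB1 (0.56, adjusted p = 0.00163), SMARCC1 (0.20, adjusted p = 0.0392) and SMARCD1 (0.54, adjusted p = 0.00207), and without any other PC9 library it was 0. That library read 71.0 CPM for SMARCB1, where replicates 1 and 2 read 99.5 and 94.2, and 82.3 CPM for SMARCD1 beside 116 and 106. With libraries left out, differences between lines appeared for SMARCB1 without PC9 long washout replicate 3 (adjusted p = 0.0247), SMARCC1 without PC9 long washout replicate 3, H1975 DTP replicate 3 and HCC2935 long washout replicate 1 (adjusted p 0.031 to 0.0482) and SMARCD1 without PC9 long washout replicate 3 (adjusted p = 0.00885). The 12 proliferation genes had median log2 fold changes of 1.16, -0.08, -0.30 and 1.35 in PC9, HCC827, H1975 and HCC2935 over the same step, with no gain in HCC827 and H1975.

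Long washout cells were set against DMSO to ask how far subunit levels lay from untreated ones. MKI67 was still lower in HCC827, H1975 and HCC2935 (-1.49, -2.04 and -0.76), and in PC9 read -0.33 (adjusted p = 0.172). SMARCA4 was lower in HCC2935, and SMARCA2 was higher in PC9 and lower in HCC827 and H1975. Calls fell on 16 of 40 member and line pairs, 4 higher and 12 lower. They were 1 in PC9, higher, beside 30.6% of all genes (15.9% higher and 14.7% lower) and 3 in HCC827, 1 higher and 2 lower, beside 39.7% (19.7% higher and 19.9% lower). Next were 5 in H1975, 2 higher and 3 lower, beside 55.0% (26.8% higher and 28.2% lower) and 7 in HCC2935, 0 higher and 7 lower, beside 39.9% (21.0% higher and 18.9% lower). HCC2935 lay above its background and PC9 below. With limma on log2 TPM the counts were 1, 1, 4 and 3 in the same order. Members had median log2 fold changes of -0.12 in PC9 (all genes 0.01), 0.02 in HCC827 (all genes -0.01), 0.04 in H1975 (all genes 0.00) and -0.34 in HCC2935 (all genes 0.00). The DMSO libraries are those of the other comparisons with DMSO. SMARCA4 fell in HCC2935 (log2 fold change -0.63, SE 0.09, adjusted p = 0.000523) and read -0.25, -0.03 and 0.26 in PC9, HCC827 and H1975 (adjusted p = 0.092, 0.825 and 0.0606). SMARCA2 rose in PC9 (log2 fold change 0.58, SE 0.10, adjusted p = 0.00725) and fell in H1975 (-0.87, SE 0.19, adjusted p = 0.00538) and HCC827 (-0.51, SE 0.18, adjusted p = 0.0494). For canonical BAF, ARID1A fell in HCC2935 (log2 fold change -0.34, SE 0.09, adjusted p = 0.0123) and ARID1B rose in H1975 (0.28, SE 0.07, adjusted p = 0.0109). For PBAF, ARID2 fell in HCC827 (log2 fold change -0.39, SE 0.11, adjusted p = 0.0169) and PBRM1 in HCC2935 (-0.47, SE 0.13, adjusted p = 0.0167). Lines differed for 8 of 10 members beside 52.4% of genes, above that share, with adjusted p = 5.42e-05 for SMARCA4, 0.000272 for SMARCA2, 0.00568 for ARID2 and 0.0339 for PBRM1. The loss of a library ended SMARCA2 in HCC827 (any but long washout replicate 3, -0.54 to -0.30, adjusted p 0.0874 to 0.13) and ARID1A in HCC2935 (DMSO replicate 2, -0.32, adjusted p = 0.0549). Further, a library ended ARID2 in HCC827 (DMSO replicate 3 and long washout replicates 1 and 2, -0.37 to -0.36, adjusted p 0.0546 to 0.0722) and PBRM1 in HCC2935 (DMSO replicate 1, -0.36, adjusted p = 0.0806). Also lost was PBRM1 between lines (H1975 DMSO replicates 1 and 2, H1975 long washout replicates 1, 2 and 3, HCC2935 DMSO replicate 1 and HCC2935 long washout replicates 2 and 3, adjusted p 0.0501 to 0.141). Calls arose for SMARCA4 in PC9 without long washout replicate 2 (-0.33, adjusted p = 0.0441), SMARCA4 in H1975 without DMSO replicate 2 (0.39, adjusted p = 0.00112) and ARID2 in H1975 without long washout replicate 3 (0.37, adjusted p = 0.0151). Differences between lines also passed for ARID1A without PC9 long washout replicates 2 and 3, HCC827 DMSO replicates 2 and 3, HCC827 long washout replicate 3, H1975 DMSO replicate 1 and H1975 long washout replicate 3 (adjusted p 0.0266 to 0.0489) and ARID1B without HCC827 DMSO replicate 2 (adjusted p = 0.046).

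In the core, H1975 and HCC2935 had lower SMARCB1 and SMARCD1 after long washout than under DMSO. SMARCB1 fell in HCC2935 (log2 fold change -0.59, SE 0.12, adjusted p = 0.00451) and H1975 (-0.47, SE 0.07, adjusted p = 0.000825), rose in HCC827 (0.35, SE 0.11, adjusted p = 0.0247) and read -0.32 in PC9 (adjusted p = 0.108). SMARCC1 rose in H1975 (log2 fold change 0.27, SE 0.07, adjusted p = 0.00856) and fell in HCC2935 (-0.51, SE 0.11, adjusted p = 0.00452). SMARCD1 fell in H1975 (log2 fold change -0.71, SE 0.10, adjusted p = 0.000518) and HCC2935 (-0.31, SE 0.11, adjusted p = 0.0474), and SMARCE1 fell in HCC2935 (-0.34, SE 0.10, adjusted p = 0.0282). All 4 differed between lines (adjusted p = 0.000201, 0.000101, 0.00553 and 0.00449 for SMARCB1, SMARCC1, SMARCD1 and SMARCE1). The loss of a library ended SMARCB1 in HCC827 (any but DMSO replicate 2, 0.31 to 0.39, adjusted p 0.058 to 0.0879) and SMARCD1 in HCC2935 (any but long washout replicate 2, -0.38 to -0.25, adjusted p 0.0564 to 0.159). Another was SMARCE1 in HCC2935 (any but long washout replicate 2, -0.36 to -0.26, adjusted p 0.053 to 0.0802). By setting alone, a call was lost with limma on log2 TPM for SMARCC1 in H1975 (adjusted p = 0.0505).

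Averaged over the 4 lines, members were called in 4 of 6 comparisons. Acute treatment lowered SMARCA4 (-0.37), ARID1A (-0.10), SMARCB1 (-0.14) and SMARCD1 (-0.16), 4 of 10 members beside 65.8% of all genes (35.0% higher and 30.8% lower). DTPs against DMSO gave 7 members beside 65.2% (33.4% higher and 31.7% lower). All were lower: SMARCA4 (-0.26), SMARCA2 (-0.30), ARID1A (-0.23), ARID2 (-0.21), SMARCB1 (-0.42), SMARCD1 (-0.36) and SMARCE1 (-0.23). DTPs against acute treatment gave 6 beside 47.7% (24.6% higher and 23.0% lower). SMARCA4 was higher (0.12) and SMARCA2 (-0.45), ARID1A (-0.13), SMARCB1 (-0.27), SMARCD1 (-0.20) and SMARCE1 (-0.27) lower. Long washout against DMSO gave 8 beside 56.7% (28.6% higher and 28.1% lower). ARID1B was higher (0.12) and SMARCA4 (-0.17), SMARCA2 (-0.25), ARID1A (-0.14), SMARCB1 (-0.27), SMARCC1 (-0.11), SMARCD1 (-0.29) and SMARCE1 (-0.16) lower. Short washout, beside 14.0% (7.90% higher and 6.05% lower) of genes, and long washout against DTPs, beside 11.0% (7.33% higher and 3.71% lower), gave 0 members by edgeR, with 3 and 2 at an unadjusted p under 0.05, 2 and 0 by DESeq2 and 0 by limma. With the replicate block, 2 passed after short washout, SMARCA4 (0.09, adjusted p = 0.0303) and SMARCA2 (0.17, adjusted p = 0.0427), and 0 after long. In either direction the counts are near or below these shares for 4 comparisons, and above them for DTPs against acute treatment and long washout against DMSO, where limma on log2 TPM called 4 and 3. No test over the members as a group was run. The averages put together lines that moved in opposite directions, SMARCA2 and SMARCB1 above all. Leaving out HCC2935 acute replicate 1 brought the acute count from 4 to 2, and leaving out H1975 DTP replicate 2 brought that of short washout from 0 to 2. With a library left out, averages past the threshold after short washout were SMARCA4 (H1975 DTP replicate 2, H1975 short washout replicate 3 and HCC2935 DTP replicate 3, 0.09 to 0.10, adjusted p 0.0395 to 0.0487), SMARCA2 (H1975 DTP replicate 1, HCC2935 DTP replicate 1 and HCC2935 short washout replicate 1, 0.20, adjusted p 0.0242 to 0.0337) and SMARCB1 (H1975 DTP replicate 2, 0.12, adjusted p = 0.0479), and after long washout against DTPs SMARCB1 (PC9 long washout replicate 3, 0.18, adjusted p = 0.0196). For acute treatment, a left-out library ended the mean of ARID1A (any but HCC827 DMSO replicate 1, H1975 DMSO replicate 2, H1975 acute replicates 2 and 3 and HCC2935 acute replicate 3, -0.10 to -0.07, adjusted p 0.05002 to 0.153) and the mean of SMARCD1 (PC9 DMSO replicate 1, PC9 acute replicate 2, HCC827 DMSO replicate 2, HCC2935 DMSO replicate 2 and HCC2935 acute replicates 1 and 3, -0.14 to -0.11, adjusted p 0.0513 to 0.0687). For DTPs against acute treatment it ended the mean of SMARCA4 (PC9 acute replicate 2, HCC827 acute replicate 2, HCC2935 acute replicate 1 and HCC2935 DTP replicate 3, 0.09 to 0.11, adjusted p 0.0513 to 0.0746). For long washout against DMSO it ended the mean of SMARCA2 (H1975 DMSO replicate 1, -0.19, adjusted p = 0.0519) and the mean of ARID1B (PC9 long washout replicate 1, HCC827 DMSO replicate 1, HCC827 long washout replicate 3, H1975 long washout replicate 3, HCC2935 DMSO replicate 3 and HCC2935 long washout replicate 1, 0.10 to 0.11, adjusted p 0.0502 to 0.0661). Lost as well was the mean of SMARCC1 (PC9 DMSO replicate 1, PC9 long washout replicate 3, HCC827 DMSO replicate 2, HCC827 long washout replicate 2, H1975 DMSO replicates 1, 2 and 3, H1975 long washout replicates 1, 2 and 3, HCC2935 DMSO replicate 1 and HCC2935 long washout replicate 3, -0.10 to -0.07, adjusted p 0.0517 to 0.165).

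The share of each SWI/SNF paralog in the summed TPM of its paralog group was followed (mean ± SD, n = 3, no test). Such a share of RNA does not show that paralogs replaced each other in a complex. SMARCA2 made up 10.9% ± 0.982 of ATPase RNA in DMSO cells of PC9, 21.96% ± 2.23 under acute osimertinib, 20.4% ± 2.104 in DTPs and 17.8% ± 1.78 after long washout. In H1975 the same arms gave 8.25% ± 2.84, 9.83% ± 3.41, 3.07% ± 0.469 and 3.83% ± 0.410. HCC827 gave 21.4% ± 0.393, 21.1% ± 2.01, 16.6% ± 0.323 and 16.2% ± 3.45, and HCC2935 20.1% ± 1.05, 27.8% ± 2.37, 28.7% ± 2.94 and 26.2% ± 1.73. So the SMARCA2 share was higher in every treated arm of PC9 and HCC2935 than under DMSO and was lowest in the late arms of H1975. SMARCD3, a paralog of SMARCD1 best known from heart and muscle, went from 5.68% ± 0.545 of the SMARCD group under DMSO to 19.9% ± 1.505 in DTPs of PC9, from 3.53% ± 1.57 to 17.8% ± 6.24 in HCC827, from 8.67% ± 0.453 to 23.9% ± 5.48 in H1975 and from 11.0% ± 1.47 to 28.6% ± 1.14 in HCC2935. SMARCC2, the paralog of SMARCC1, held 46.9% ± 6.43 of the SMARCC pair under DMSO and 24.5% ± 2.11 in DTPs of H1975, and 69.7% ± 0.149 and 71.6% ± 1.79 in HCC2935, where SMARCC1 was low. ARID1B held 35.2% to 43.6% of the ARID1 pair over all 20 groups.

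**Figure D4:**
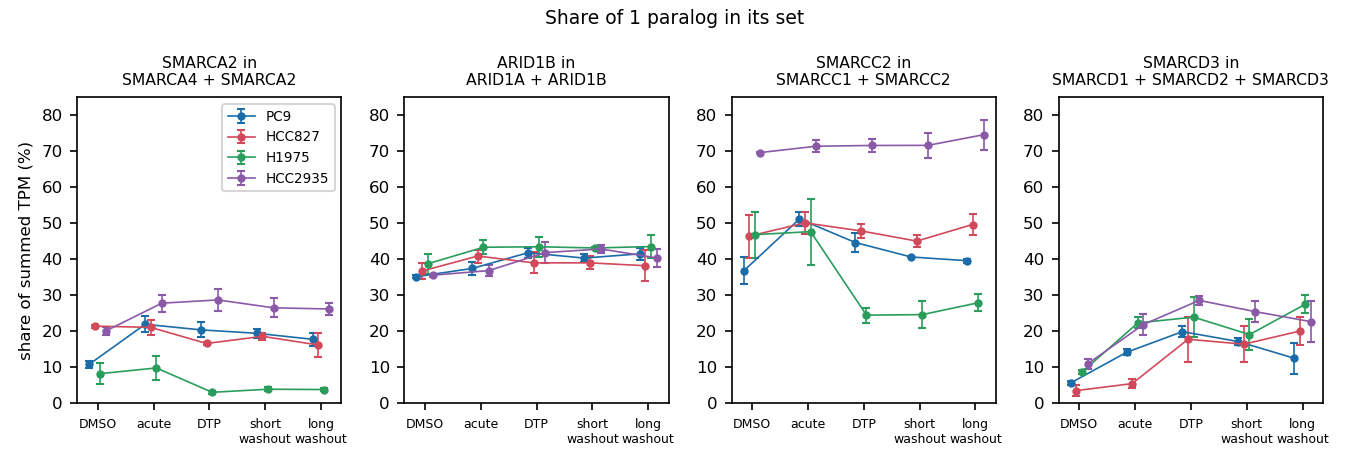
Share of summed TPM (%, mean with bars of 1 SD, n = 3) held by SMARCA2, ARID1B, SMARCC2 and SMARCD3, each in its paralog group, by line and arm. The SMARCD3 share is higher in every treated arm than under DMSO in all 4 lines.

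Among the other 18 SWI/SNF genes on the list, for which the same backgrounds hold, some showed changes shared by all 4 lines. Others were called in opposite directions acutely, as BCL7A (-0.56 in PC9, -0.65 in H1975 and 0.51 in HCC827) and PHF10 (-0.78 in PC9 and 0.31 in HCC2935). The genes named next were picked by how many lines agreed. Acutely, 13 of 16 in PC9, 7 of 16 in HCC827, 8 of 17 in H1975 and 10 of 16 in HCC2935 were called among those tested. ACTL6A, an actin-related subunit linked to the proliferating state, fell in all 4 lines (log2 fold changes of -1.202, -0.62, -1.12 and -0.74 in PC9, HCC827, H1975 and HCC2935, mean -0.91, SE 0.04, adjusted p = 1.03e-14), as did BCL7B, a partner of the ATPase (-0.32, -0.41, -0.60 and -0.43, mean -0.43, SE 0.06, adjusted p = 1.65e-06). BICRAL, a subunit of the non-canonical BAF complex, rose in all 4 (0.95, 0.69, 0.51 and 0.55, mean 0.68, SE 0.05, adjusted p = 3.93e-11), and SMARCD3 rose in PC9, H1975 and HCC2935 (1.28, 1.08 and 1.02), with 0.61 in HCC827 (adjusted p = 0.189). In DTPs against DMSO, 11 of 16 in PC9, 6 of 17 in HCC827, 7 of 17 in H1975 and 12 of 16 in HCC2935 were called. SMARCD3 rose in all 4 lines (1.30, 2.41, 1.35 and 0.89, mean 1.47, SE 0.14, adjusted p = 5.85e-09), while ACTL6A (-1.08, -0.74, -0.82 and -0.70, mean -0.85, SE 0.05, adjusted p = 2.49e-12) and BCL7B (-0.27, -0.54, -0.93 and -0.41) fell in all 4. SMARCD2, another SMARCD paralog, fell in PC9, HCC827 and HCC2935 (-0.90, -0.77 and -1.08), with -0.25 in H1975 (adjusted p = 0.0564). Acutely, a left-out library ended BCL7B in HCC827 (acute replicates 1 and 2, -0.40 to -0.38, adjusted p 0.085 to 0.0918). In DTPs it ended BCL7B in PC9 (DMSO replicate 1 and DTP replicate 2, -0.21 to -0.19, adjusted p 0.0792 to 0.0897) and BCL7B in HCC2935 (DMSO replicates 1 and 2 and DTP replicate 2, -0.35 to -0.30, adjusted p 0.0522 to 0.0832).

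Between DTPs and acute treatment, SMARCC2 was lower in all 4 lines (-0.39, -0.41, -1.01 and -0.47) and SMARCD2 was lower in PC9, HCC827 and HCC2935 (-0.76, -0.57 and -0.81, with 0.20 in H1975). BCL7C fell in PC9 and HCC2935 (-0.38 and -0.47), as did DPF2, a reader of histone acylation in canonical BAF (-0.24 and -0.44), reversed in PC9 with limma on log2 TPM (0.0274, adjusted p = 0.814). Calls that hung on single libraries were SMARCC2 in HCC827 (any but DTP replicate 1, -0.47 to -0.29, adjusted p 0.068 to 0.152) and DPF2 in PC9 (any but acute replicate 2 and DTP replicate 2, -0.23 to -0.20, adjusted p 0.0695 to 0.0978). After long washout against DMSO, SMARCD3 was higher in all 4 lines (0.90, 2.60, 1.56 and 0.79), and ACTL6A (-0.42, -0.74, -0.96 and -0.60) and SMARCD2 (-0.45, -0.56, -0.29 and -0.54) were lower in all 4. BICRAL was higher in PC9, HCC827 and H1975 (0.54, 0.50 and 0.30) and read -0.28 in HCC2935. The loss of a library ended SMARCD3 in PC9 (DMSO replicates 1 and 3, 0.85 to 0.90, adjusted p 0.0615 to 0.0643) and SMARCD3 in HCC2935 (long washout replicates 1 and 3, 0.65 to 0.69, adjusted p 0.0517 to 0.052). Further, a library ended ACTL6A in PC9 (any but long washout replicates 2 and 3, -0.47 to -0.41, adjusted p 0.0708 to 0.101) and SMARCD2 in PC9 (any but long washout replicates 2 and 3, -0.46, adjusted p 0.0598 to 0.0715). Also lost were SMARCD2 in H1975 (long washout replicates 2 and 3, -0.27 to -0.23, adjusted p 0.0508 to 0.0633) and BICRAL in PC9 (any but long washout replicate 2, 0.41 to 0.55, adjusted p 0.0549 to 0.113). Others were BICRAL in HCC827 (any but long washout replicate 1, 0.40 to 0.55, adjusted p 0.0562 to 0.107) and BICRAL in H1975 (any but DMSO replicates 1 and 2, 0.26 to 0.32, adjusted p 0.053 to 0.102).

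After short washout, BICRAL (-0.28) and SMARCC2 (-0.23) were lower than in DTPs of PC9. After long washout, SMARCD2 was higher in PC9 and HCC2935 (0.43 and 0.50), and in PC9 ACTL6A (0.64) and BRD7, a bromodomain subunit of PBAF (0.39), were higher and BICRAL lower (-0.61). After short washout a left-out library ended BICRAL in PC9 (any but DTP replicate 2, -0.29 to -0.25, adjusted p 0.0545 to 0.073) and SMARCC2 in PC9 (any but DTP replicate 1, -0.24 to -0.16, adjusted p 0.0924 to 0.133). After long washout it ended SMARCD2 in PC9 (any but long washout replicate 3, 0.33 to 0.50, adjusted p 0.121 to 0.155) and SMARCD2 in HCC2935 (any but long washout replicate 1, 0.42 to 0.54, adjusted p 0.0693 to 0.148). Lost as well were ACTL6A in PC9 (any but long washout replicate 3, 0.55 to 0.69, adjusted p 0.0676 to 0.121) and BRD7 in PC9 (any but long washout replicate 3, 0.33 to 0.42, adjusted p 0.104 to 0.138). Further, a library ended BICRAL in PC9 (any but long washout replicate 3, -0.64 to -0.49, adjusted p 0.071 to 0.128).

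**Figure D5:**
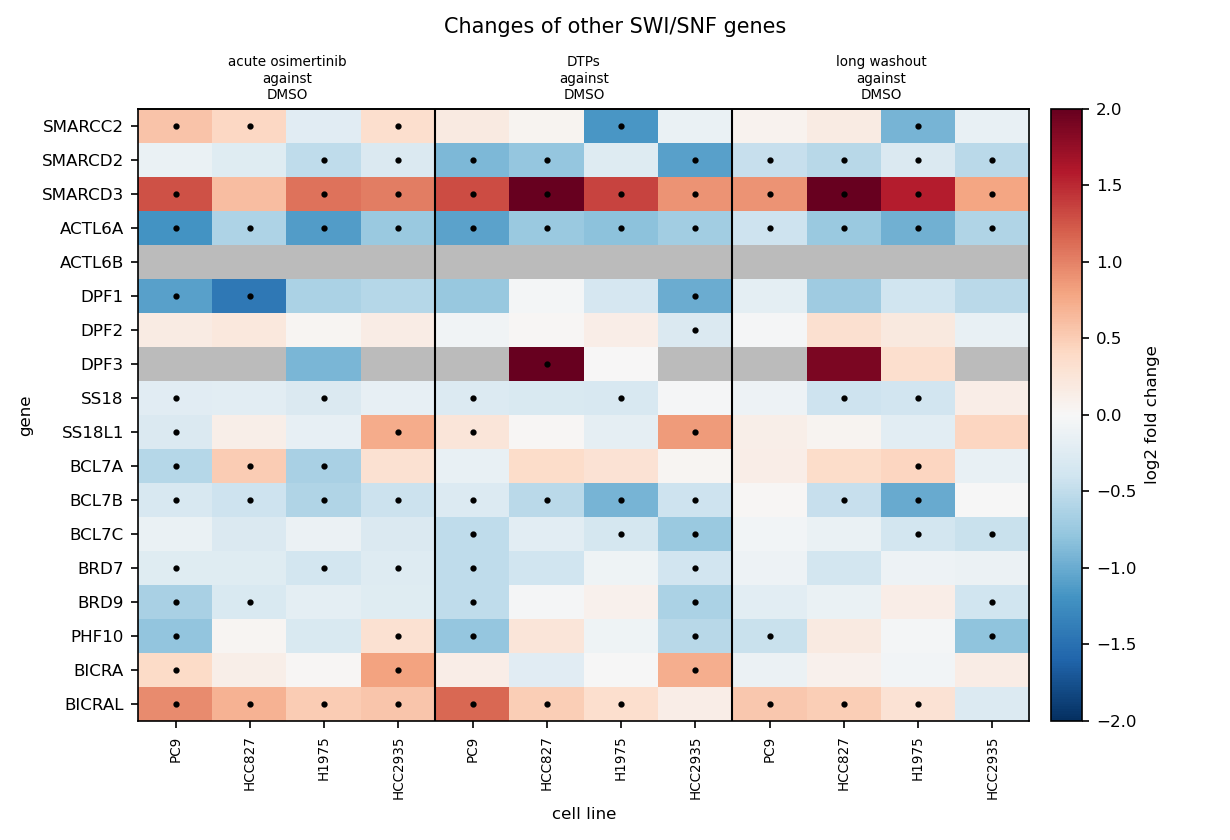
Log2 fold changes of the 18 other SWI/SNF genes (vertical) by line for acute osimertinib, DTPs and long washout against DMSO (horizontal), dots marking calls (edgeR, adjusted p under 0.05), grey genes not tested and colours saturating at 2 in either direction. SMARCD3 is higher and ACTL6A lower across lines, as in DTPs (1.30, 2.41, 1.35 and 0.89 and -1.08, -0.74, -0.82 and -0.70 in PC9, HCC827, H1975 and HCC2935).

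Among 22 genes of other remodeller families, all tested, 16 in PC9 (5 higher), 9 in HCC827 (3 higher), 14 in H1975 (5 higher) and 11 in HCC2935 (4 higher) were called acutely, beside 68.5%, 42.3%, 44.9% and 47.1% of all genes. HELLS, an SNF2-family helicase of replicating cells, fell in PC9, HCC827, H1975 and HCC2935 acutely (-2.06, -2.36, -1.97 and -3.31) and in DTPs against DMSO (-1.58, -1.31, -1.21 and -2.13), and so did RUVBL1, an AAA+ ATPase of the INO80 and SRCAP complexes (-1.38, -0.70, -1.31 and -0.68 acutely and -1.43, -0.80, -0.83 and -0.66 in DTPs). DTPs against acute treatment had HELLS higher in HCC827, H1975 and HCC2935 (1.01, 0.71 and 1.17) and CHD3, a NuRD helicase, lower in PC9, HCC827 and HCC2935 (-0.36, -0.83 and -0.90). For DTPs against acute treatment, leaving out a library ended HELLS in H1975 (acute replicates 2 and 3 and DTP replicate 2, 0.46 to 0.68, adjusted p 0.0598 to 0.095). Long washout against DMSO had SMARCA1, an ISWI ATPase, higher in PC9, H1975 and HCC2935 (0.62, 0.86 and 1.46) and HELLS lower in HCC827, H1975 and HCC2935 (-1.41, -1.44 and -0.95). Short washout against DTPs raised HELLS in HCC2935 (1.37) and CHD1L, a helicase activated by PARP1, in PC9 (0.62), and long washout raised HELLS in PC9 and HCC2935 (1.14 and 1.14) and RUVBL2, the partner of RUVBL1, in PC9 (0.65). After short washout, leaving out a library ended HELLS in HCC2935 (short washout replicate 3, 1.26, adjusted p = 0.052). After long washout, leaving out a library ended HELLS in PC9 (any but long washout replicate 3, 1.01 to 1.198, adjusted p 0.0575 to 0.121) and HELLS in HCC2935 (any but DTP replicate 3 and long washout replicate 1, 0.96 to 1.28, adjusted p 0.0683 to 0.094). Also lost was RUVBL2 in PC9 (any but long washout replicate 3, 0.51 to 0.68, adjusted p 0.0934 to 0.132).

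Genes most like the ATPases in pattern were found over the 20 group means, centred within each line, among 11670 genes. For SMARCA4 they were GNL3, a nucleolar GTPase (Pearson r = 0.922), TCF20 (0.919) and LYRM4 (0.916), GNL3 being the gene that overlaps PBRM1, itself at 0.585. For SMARCA2 they were GNA15, a G protein subunit (0.893), SPINT2, an epithelial protease inhibitor (0.882), and C1orf116 (0.878). SMARCA4 and SMARCA2 had r = -0.522 with each other, and of the other members SMARCC1 was the most like SMARCA4 (0.768). The points share lines and libraries, so these values describe the 20 groups and carry no p.

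How libraries are scaled moved every gene in some comparisons, and so the size of some subunit changes. On the deposited log2 TPM values without further scaling, limma put the median of all genes at 0.29 in PC9, 0.17 in HCC2935 and 0.18 in the mean for DTPs against DMSO, and at 0.28, 0.17 and 0.12 for DTPs against acute treatment. For long washout it gave 0.16 in PC9 and 0.12 in the mean against DMSO and -0.11 in PC9 against DTPs. Scaling by library size alone gave medians of 0.18 and 0.15 in PC9 for DTPs against DMSO and against acute treatment, 0.12 in PC9 for long washout against DMSO and 0.10 in HCC827 acutely, with 0.13 and 0.12 in the means of acute treatment and DTPs against DMSO. In the acute mean, DESeq2 and RLE factors put the median at 0.12 and 0.12. TMM itself gave 0.08 there and 0.05 in the mean of DTPs against DMSO. For DTPs of PC9, limma placed SMARCA4 at -0.34, or -0.63 relative to that median, SMARCB1 at -0.48 (-0.77 relative to it), ARID1A at -0.14 (-0.43) and SMARCA2 at 0.73 (0.44). For DTPs of HCC2935, SMARCA4 stood at -0.49 (-0.66 relative to its median) and SMARCB1 at -0.61 (-0.78). ARID1A in PC9 changed sign for DTPs against acute treatment, from -0.23 with TMM to 0.03 with limma on log2 TPM, which is -0.25 relative to the median. SMARCA2 in PC9 was higher under acute treatment, in DTPs and after long washout, and SMARCA2 in H1975 lower in DTPs and after long washout, under every scaling run.

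The split of called genes moved too. With TMM, 49.7% of genes called in DTPs against DMSO were higher in PC9, 48.2% in HCC2935 and 51.3% in the mean, and with limma on log2 TPM 65.5%, 63.1% and 63.8%. Against acute treatment the shares were 48.3% in PC9, 51.8% in HCC2935 and 51.7% in the mean with TMM, 83.9%, 70.8% and 70.7% with limma, and 69.1% in PC9 by library size alone. For long washout against DMSO, 51.9% in PC9, 52.6% in HCC2935 and 50.5% in the mean became 70.5%, 64.8% and 60.8% with limma, and 67.4% in PC9 by library size alone. Against DTPs, long washout gave 68.4% in PC9 and 66.4% in the mean, and 55.1% and 56.0% with DESeq2, the mean being 52.1% with limma, which called 0 genes in PC9. The mean of short washout moved from 56.6% to 66.9% with limma, and HCC827 acutely from 47.8% to 57.9% by library size alone.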

How the data were processed

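RNA of 60 libraries was taken as deposited by the authors, in 2 tables over 19712 gene symbols. The first holds estimated counts per gene, deposited by the authors without scaling between libraries (83.9% of the values are not whole numbers, and they were rounded). The second holds log2 values of TPM plus 0.01, deposited by the authors, which were turned back into TPM for levels. The submitters' processing notes name HISAT2 2.1.0, Salmon 0.8.2 and hg38. Their roles, the annotation and the counting strand are not given in the sources used here. Column names placed each library in 1 of 4 lines, 5 arms and 3 biological replicates, with 0 columns unmapped. Depth ran from 17.7 to 49.1 M estimated counts (median 30.1, M being 1e6), and with 3 replicates per group their spread, not counting error, sets the precision.

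Counts were tested with edgeR 4.0.16 (quasi-likelihood, TMM scaling, low counts removed by filterByExpr at its defaults) in R 4.3.3, each line on the 6 libraries of its 2 arms. P-values were adjusted over all genes by Benjamini and Hochberg, and a gene was called at adjusted p under 0.05. Fits over 24 libraries gave the mean of 4 lines and a test, on 3 degrees of freedom, of whether the effect differs between lines. The 12 DMSO libraries were tested for differences between lines. CPM levels are TMM-scaled over all 60 libraries. The edgeR fits of 1 line, of the mean and of the difference between lines were tested on simulated data with changes of known size, and the alternative settings were not. A subunit that was not called may still differ. Sequences come from RefSeq and coordinates from GENCODE, both on GRCh38. Summaries used pandas 2.3.3 and numpy 2.4.6 under Python 3.11.15, and plots matplotlib 3.10.9.

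The 10 members and the gene lists were chosen with earlier results of these data known. Named genes followed a rule set before the files were opened, which took all members. Of 18 other SWI/SNF genes it took up to 4 per comparison, those called in the same direction in the most lines. For DTPs against acute treatment and washouts against DTPs, these include genes called in only 1 or 2 of 4 lines. Of 22 other remodeller genes it took the 2 with the largest mean change. It also took the 3 genes most like SMARCA4 or SMARCA2 over groups, and the first 2 of the ERK (10 genes) and proliferation (12 genes) lists. Markers of epithelium, lung lineage, fibroblasts, leukocytes and endothelium were read as levels. Those of epithelium were also tested with edgeR, outside that rule. Replicate numbers were checked for pairing by the correlation of same-numbered libraries around their group means, and 3 of 24 comparisons had all correlations over 0.1. The pairing there comes from the data, since the labels give only a number. Alternatives were DESeq2 1.42.0, RLE size factors, library size alone, no filter, limma 3.58.1 on log2 TPM, the replicate number as a block, all 15 libraries of a line, adjusted p under 0.01 and each library left out. Limma on log2 TPM centred on the median was added after seeing the data. The short washout was not compared with DMSO, and no pathway test was run.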

Additional observations from a re-analysis of the deposited data

Results flagged for a closer look

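A closer look is due where the effect of an arm differed between the 4 lines (edgeR, 3 degrees of freedom, adjusted p over all genes). Under acute osimertinib against DMSO, SMARCA4 (adjusted p = 0.025, lost without any 1 of 2 libraries), SMARCB1 (0.000112), SMARCC1 (0.00082), SMARCD1 (0.0122) and SMARCE1 (0.00587) differed. In DTPs against DMSO, SMARCA4 (adjusted p = 2.09e-06), SMARCA2 (5.43e-06), ARID1A (0.00167), ARID2 (0.00937), SMARCB1 (3.68e-07), SMARCC1 (0.000700), SMARCD1 (0.00242) and SMARCE1 (0.0056) differed. Between DTPs and acute treatment, SMARCA4 (adjusted p = 1.39e-05), SMARCA2 (0.00268), ARID1A (0.0182), ARID2 (0.0108), SMARCB1 (0.000471), SMARCC1 (1.53e-06) and SMARCE1 (0.00196) differed. After long washout against DTPs, SMARCA4 (adjusted p = 0.0468) differed, a result that most left-out libraries end. After long washout against DMSO, SMARCA4 (adjusted p = 5.42e-05), SMARCA2 (0.000272), ARID2 (0.00568), PBRM1 (0.0339, lost without any 1 of 8 libraries), SMARCB1 (0.000201), SMARCC1 (0.000101), SMARCD1 (0.00553) and SMARCE1 (0.00449) differed. With limma on log2 TPM, ARID1A, SMARCC1 and SMARCE1 in DTPs against DMSO and ARID1A against acute treatment did not pass, the last also with the replicate block. SMARCA4 after long washout against DTPs passed with neither of these settings. After long washout against DMSO, 7 instead of 8 members passed with limma on log2 TPM.

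For SMARCA2, the lower level in DTPs of H1975 and HCC827 went along with lower EPCAM and CDH1, and in PC9, where SMARCA2 rose, CDH1 rose and EPCAM fell. In HCC2935 EPCAM fell with neither SMARCA2 nor CDH1 called. Keratins did not follow SMARCA2, being lower in DTPs of HCC2935 and not called in those of H1975. A shift in the state or mix of cells within these lines and a change of SMARCA2 itself cannot be told apart in bulk RNA. For SMARCB1, HCC827 began low and rose in DTPs, where the other lines fell. A different share of the overlapping antisense gene DERL3 in the counts was not tested, and neither was gene dosage. For long washout, the lines also differ in the days without drug, so line and time cannot be told apart.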

How the results depend on the processing

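Of 708 results, 666 kept their side and direction with DESeq2, 692 with RLE size factors, 693 without a filter, 649 with library size alone, 646 with the replicate block, 619 with limma on centred log2 TPM, 573 with limma on log2 TPM and 608 at adjusted p under 0.01. Depth covered every member in every library, and 3 replicates per group limit small changes: many calls had an adjusted p close to 0.05. With limma on log2 TPM the median log2 fold change of all genes in DTPs of PC9 against DMSO was 0.29, and centring was chosen after seeing such shifts, whose cause was not tested. Nor was that of the other moves. Calls that a left-out library ended were often lost with limma or another setting too. Calls lost by setting alone are named above, and of the calls lost both ways only some are given with their settings. Pairing by replicate number added the 2 member calls given above. The block changed the call of no other member in the 3 comparisons within a line that the numbers pair.

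Of the counts over all lines, in the mean and of differences between lines, those that moved by over 1.5 times were these. Counts within a line moved too and are not all listed. In acutely treated H1975, 5 became 2 with limma on log2 TPM, limma on centred log2 TPM and the replicate block. Called pairs: Acute treatment, 14 became 9 with limma on log2 TPM, limma on centred log2 TPM and the replicate block and 6 with adjusted p under 0.01. DTPs against DMSO, 21 became 13 with limma on log2 TPM. DTPs against acute treatment, 17 became 6 with limma on log2 TPM and 8 with adjusted p under 0.01. Short washout, 1 became 0 with limma on centred log2 TPM and a fit of all 15 libraries and 2 with the replicate block. Long washout against DTPs, 1 became 2 with DESeq2 and 0 with limma on log2 TPM, limma on centred log2 TPM, the replicate block, RLE size factors, library size alone, no filter and adjusted p under 0.01 and 5 with a fit of all 15 libraries. Long washout against DMSO, 16 became 9 with limma on log2 TPM and 8 with adjusted p under 0.01. Members called in the mean: Acute treatment, 4 became 2 with adjusted p under 0.01. Short washout, 0 became 2 with the replicate block and DESeq2. Long washout against DMSO, 8 became 3 with limma on log2 TPM and 4 with adjusted p under 0.01. Members differing between lines: Acute treatment, 5 became 3 with adjusted p under 0.01. DTPs against DMSO, 8 became 5 with limma on log2 TPM. Long washout against DTPs, 1 became 2 with DESeq2 and 0 with limma on log2 TPM, limma on centred log2 TPM, the replicate block, RLE size factors, library size alone, no filter and adjusted p under 0.01. 2 values reversed, ARID1A and DPF2 in PC9 for DTPs against acute treatment, at 0.0271 and 0.0274 with limma on log2 TPM.

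With each library left out, called pairs ran from 11 to 16 for acute treatment, 18 to 22 for DTPs against DMSO, 13 to 17 for DTPs against acute treatment, 1 to 1 for short washout, 0 to 5 for long washout against DTPs and 13 to 17 for long washout against DMSO. Members called in the mean ran from 2 to 5 for acute treatment, 7 to 8 for DTPs against DMSO, 5 to 7 for DTPs against acute treatment, 0 to 2 for short washout, 0 to 1 for long washout against DTPs and 6 to 8 for long washout against DMSO, and members differing between lines from 4 to 7 for acute treatment, 8 to 9 for DTPs against DMSO, 7 to 8 for DTPs against acute treatment, 0 to 0 for short washout, 0 to 4 for long washout against DTPs and 7 to 10 for long washout against DMSO. Of the 10 members, 9 to 10 differed between untreated lines.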
